A study of Homo sapiens with 2 samples.

Results

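The metallothionein genes of human H1 cells were compared between 1 WT and 1 MEIS2-/- library at day 4 of hematopoietic differentiation. The family comprises MT1A, MT1E, MT1F, MT1G, MT1H, MT1M, MT1X, MT2A and MT3, that is 9 of the 17397 genes with an expression value. It was chosen by name, but with the fold changes of these same 2 libraries in view, so the levels and fold changes given here are those that selected it and are a description with no test. SLC30A1, which encodes a zinc exporter, was set beside them.

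H1 is an established human embryonic stem cell line. The WT cells were unedited H1. The MEIS2-/- cells were H1 in which the transcription factor gene MEIS2 was targeted with a lentiviral CRISPR/Cas9 guide to exon 3. Puromycin selection and growth of colonies from individual cells followed, and the paper describes the resulting MEIS2-/- clones as homozygous for MEIS2 deletion. More than 1 homozygous clone was made, which of them was sequenced is not stated in the labels, and no control vector is mentioned for the WT cells. Both groups received activinA (50 ng/ml) with BMP4 (40 ng/ml) in Custom mTeSR1 during the first 2 days, then VEGF (40 ng/ml) with bFGF (50 ng/ml) during the next 2 days.

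Metallothioneins are small intracellular proteins in which clusters of cysteines bind zinc, copper and cadmium. The MT1 and MT2A genes are made in many tissues, are abundant in the fetal liver, and are switched on by zinc through the transcription factor MTF1, which binds short metal response elements in their promoters. Glucocorticoids, oxidants and low oxygen are also known to raise them, whereas MT3 is known mainly from the brain.

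All 9 genes lie in 1 cluster on chromosome 16. In the GENCODE 29 annotation of GRCh38 they cover 95.1 kb, from MT3 (chr16:56589074-56591088) through MT2A (chr16:56608199-56609497), MT1E (chr16:56625475-56627112), MT1M (chr16:56632233-56633986), MT1A (chr16:56638666-56640087), MT1F (chr16:56657694-56660698), MT1G (chr16:56666731-56668065) and MT1H (chr16:56669814-56671129) to MT1X (chr16:56682424-56684196). MT1G is on the minus strand and the others are on the plus strand. Each gene has 3 exons. The deposited tables hold no coordinates and were made with another build, hg19, so these positions come from the annotation alone.

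The coding sequences of the 6 metallothioneins that were expressed at 1 FPKM or more are shown because their likeness bears on how reads can be assigned to single genes. They are given from the start codon to the last codon before the stop, as annotated in GENCODE 29 on GRCh38, with the cysteine codons in capitals.
MT2A: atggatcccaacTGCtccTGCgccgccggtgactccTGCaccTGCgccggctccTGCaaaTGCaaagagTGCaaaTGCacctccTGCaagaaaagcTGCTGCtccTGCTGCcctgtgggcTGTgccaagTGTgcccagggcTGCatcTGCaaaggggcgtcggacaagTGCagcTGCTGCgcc
MT1X: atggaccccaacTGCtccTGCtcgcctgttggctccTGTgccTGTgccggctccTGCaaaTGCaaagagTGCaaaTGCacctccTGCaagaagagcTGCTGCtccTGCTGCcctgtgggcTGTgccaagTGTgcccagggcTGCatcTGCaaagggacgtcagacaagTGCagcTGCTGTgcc
MT1E: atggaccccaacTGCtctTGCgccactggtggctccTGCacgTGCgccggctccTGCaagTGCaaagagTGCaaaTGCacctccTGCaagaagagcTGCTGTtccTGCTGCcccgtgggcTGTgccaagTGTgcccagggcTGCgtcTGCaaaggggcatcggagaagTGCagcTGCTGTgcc
MT1G: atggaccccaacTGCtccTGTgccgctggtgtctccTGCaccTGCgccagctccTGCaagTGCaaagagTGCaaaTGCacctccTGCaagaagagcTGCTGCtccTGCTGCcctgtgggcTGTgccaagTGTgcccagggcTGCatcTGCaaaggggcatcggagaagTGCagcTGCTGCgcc
MT1H: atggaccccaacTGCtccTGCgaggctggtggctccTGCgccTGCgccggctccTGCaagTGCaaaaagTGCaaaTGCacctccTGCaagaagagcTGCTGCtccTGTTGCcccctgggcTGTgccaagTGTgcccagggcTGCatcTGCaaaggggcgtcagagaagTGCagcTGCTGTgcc
MT1F: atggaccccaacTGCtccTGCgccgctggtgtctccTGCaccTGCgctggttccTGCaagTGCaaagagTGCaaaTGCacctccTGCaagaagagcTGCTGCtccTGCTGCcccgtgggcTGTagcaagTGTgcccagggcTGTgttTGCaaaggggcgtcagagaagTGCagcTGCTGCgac

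Each of these reading frames had 183 bases and 61 codons, and 20 of the codons (32.8%) encoded cysteine. MT1A and MT1M had the same lengths and the same number of cysteine codons. The MT3 frame was longer, with 204 bases and 68 codons, 20 of them for cysteine (29.4%). Among the MT1 genes and MT2A, identity of the coding sequence ranged from 88.5% between MT1F and MT1X (21 base edits) to 95.1% between MT1G and MT2A (9 base edits). Against MT3 it ranged from 74.5% for MT1H to 77.9% for MT1F.

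Sharing was also counted over whole transcripts, as the percentage of a transcript's 50-base windows that occurred exactly in an annotated transcript of another gene. MT2A shared 4.88% of its windows, MT1E 5.34% and MT1F 3.59%, so most of the sequence of these GENCODE 29 transcripts was their own at that length. For MT2A this is the share of a 786-base transcript from a gene model that starts before the RefSeq start. The share over a shorter RefSeq transcript may be higher and was not computed. MT1G shared 20.2% and MT1H 20.4%. For MT1G the gene with most shared windows was MT1X (13.2%), and for MT1H it was MT1HL1 (17.2%), a relative on chromosome 1. MT1X shared 45.1%, of which 29.2% was with AC026461.1, another annotated gene whose position was not examined, and 16.0% was with other metallothioneins. MT3 shared none. At 100 bases only MT1H (3.36%) and MT1X (19.1%) still shared windows. The counting of reads could therefore have split or exchanged values between members, with the most shared sequence between MT1X and MT1G. Of the other members, MT1H shared windows only with MT1G (3.16% of its windows). Most of the sharing of MT1H and MT1X was with MT1HL1 and AC026461.1, which are not members. Exact windows are only a guide to this, since the read length, the mismatches allowed and the treatment of reads with several matches are not given in the sources used here.

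Promoters were searched because the metal response element is the family's best known regulatory sequence. RefSeq promoter windows on GRCh38.p14 were at hand for 3 of the 9 members, MT1H, MT1X and MT2A, and for SLC30A1. The 250 bases before the annotated start were searched on both strands for the letters TGCACNC and TGCGCNC, where N is any base. Matches are in capitals in the sequences below, which read in the direction of transcription. For MT1X only the part that lies before the GENCODE 29 gene model is shown.
MT1H promoter, chr16:56669564-56669813, plus strand: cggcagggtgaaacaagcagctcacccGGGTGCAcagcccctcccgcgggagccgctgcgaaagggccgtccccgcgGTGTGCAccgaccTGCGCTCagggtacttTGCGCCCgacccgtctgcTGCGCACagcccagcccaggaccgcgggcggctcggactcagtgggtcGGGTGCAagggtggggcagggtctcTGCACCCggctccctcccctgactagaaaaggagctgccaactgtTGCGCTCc
MT1X promoter, chr16:56682220-56682423, plus strand: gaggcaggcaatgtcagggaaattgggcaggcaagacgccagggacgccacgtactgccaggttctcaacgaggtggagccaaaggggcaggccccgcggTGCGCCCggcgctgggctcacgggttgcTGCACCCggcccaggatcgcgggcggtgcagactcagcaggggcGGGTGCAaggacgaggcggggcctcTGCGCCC
SLC30A1 promoter, chr1:211579162-211579411, minus strand: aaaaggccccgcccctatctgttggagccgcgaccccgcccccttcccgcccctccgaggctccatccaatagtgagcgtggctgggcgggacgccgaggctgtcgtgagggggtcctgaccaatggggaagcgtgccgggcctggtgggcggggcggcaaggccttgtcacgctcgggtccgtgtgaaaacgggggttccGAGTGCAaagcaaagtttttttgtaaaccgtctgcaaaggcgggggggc

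The MT1H promoter held 8 matches, 5 on the forward strand and 3 on the reverse strand, with first bases from 223 to 8 bases before the start. The MT1X window held 4 matches, at 150, 122, 78 and 53 bases before the RefSeq start. The MT2A window, chr16:56608334-56608583, held 7 matches from 246 to 8 bases before the RefSeq start. That window lies wholly inside the longer GENCODE 29 gene model of MT2A, so its sequence is not shown. The SLC30A1 promoter held 1 on the reverse strand at 49 bases before the RefSeq start. In GENCODE 29 this gene starts further downstream, at chr1:211578742, and the bases between the window and that start were not searched. Of 35116 promoter windows of the same length, 24.8% held at least 1 match, 0.37% at least 4, 0.0313% at least 7 and 0.0171% at least 8. These counts describe letters only. No binding was measured in these cells.

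Both libraries were summarised by the authors as FPKM, the number of fragments per kilobase of transcript scaled to the total of mapped fragments, so levels of different genes can be set side by side per length. The summed FPKM of all genes was 447542 in WT and 440651 in MEIS2-/- cells. With 1 library per genotype there is no replicate check, and with no read counts the depth is unknown, so no interval or p-value is given for any value. Log2 fold changes were computed as MEIS2-/- over WT after adding 0.1 FPKM, for the 13075 genes that reached 1 FPKM in either library. Their median was 0.12, and 5% of them lay under −1.33 and 5% over 1.25. The targeted gene itself, MEIS2, stood at 10.85 FPKM in WT cells against 3.44 FPKM in MEIS2-/- cells (log2 fold change −1.63).

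MT2A, the active human gene of the MT2 class, had the highest level of the family in both libraries. Its level was 398.75 FPKM with WT and 40.14 FPKM with MEIS2-/- genotype. It was 9.93-fold lower in MEIS2-/- cells (log2 fold change −3.31), and its rank by FPKM among all genes moved from 159 to 2050. MT1X followed it, at 261.02 FPKM in WT and 31.67 FPKM in MEIS2-/- cells, 8.24-fold lower (log2 fold change −3.04). Its rank moved from 228 to 2614. These most abundant metallothioneins were thus among the strongly expressed genes of the WT cells, and lower in the ranking in MEIS2-/- cells. MT2A lost 358.6 FPKM, and 20 genes of the whole table lost more.

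MT1E stood at 107 FPKM in WT and 11.62 FPKM in MEIS2-/- cells, 9.21-fold lower (log2 fold change −3.19). MT1G stood at 50.4 FPKM and 12.61 FPKM, a 4.00-fold lower level (log2 fold change −1.99). MT1H stood at 10.73 FPKM and 1.31 FPKM, 8.19-fold lower (log2 fold change −2.94). All of these encode zinc-binding MT1 isoforms. MT1E and MT1H kept 10.9% and 12.2% of the WT level, close to the 10.1% of MT2A and the 12.1% of MT1X, while MT1G kept 25.0%.

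MT1F was the exception among the measured members. It stood at 4.31 FPKM in WT and 3.14 FPKM in MEIS2-/- cells, and so kept 72.9% of its WT level (log2 fold change −0.44). It did not reach a 2-fold difference. Its transcript shared few 50-base windows with other genes (3.59%), and its level in WT cells was under that of MT1H. MT1H, the next of the family above it in WT cells, stood below it in MEIS2-/- cells.

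The remaining members were hardly detected. MT1M stood at 0.18 FPKM in WT and 0.15 FPKM in MEIS2-/- cells. MT3, the brain isoform, stood at 0.17 FPKM in WT and was listed at 0 in MEIS2-/- cells. MT1A was listed at 0 in WT and stood at 0.2 FPKM in MEIS2-/- cells. Since these 3 genes were under 1 FPKM in both libraries, no fold change is given for them. No other metallothionein symbol was found among the genes with an expression value. MT1B, MT4, MT1HL1 and the annotated pseudogenes of the family are therefore not covered here, nor in the family's sum.

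**Figure D1:**
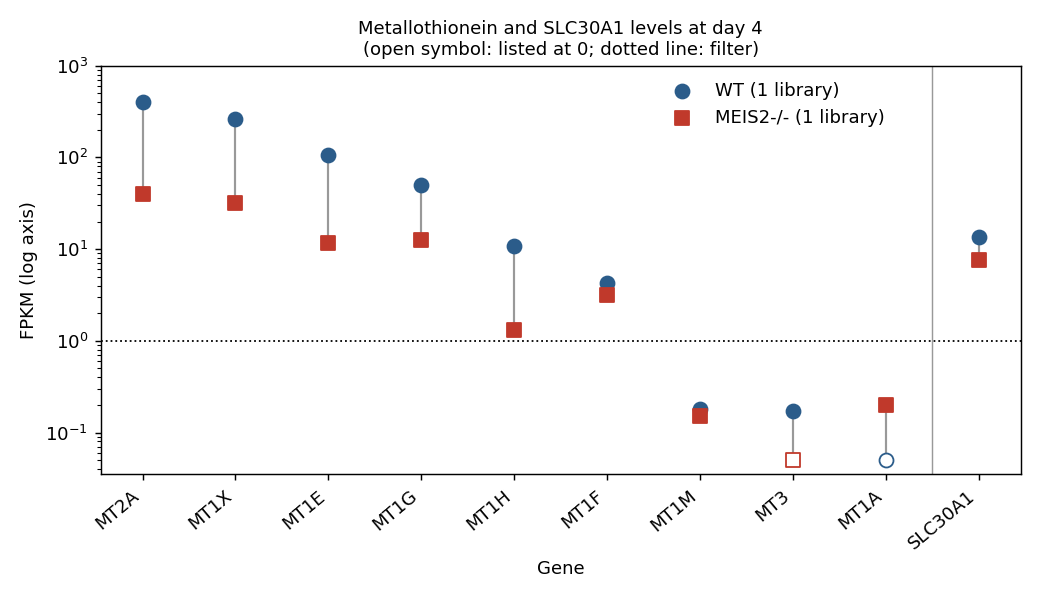
FPKM (log axis) of the 9 metallothioneins and of SLC30A1 in the WT library (circles) and the MEIS2-/- library (squares), 1 library each, with open symbols for genes listed at 0 and a dotted line at the filter of 1 FPKM. The symbols of MT2A, MT1X, MT1E, MT1G and MT1H lie far apart, MT2A falling from 398.75 to 40.14 FPKM, whereas those of MT1F lie close together at 4.31 and 3.14 FPKM.

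Of the 9 members, 6 passed the filter of 1 FPKM, and these were above 1 FPKM in both libraries. All 6 had a negative log2 fold change, from −3.31 to −0.44 with a median of −2.99. At least 2-fold lower levels were found for 5 of them, where 7.97% of all compared genes were at least 2-fold lower. No member was at least 2-fold higher, where 7.84% of all compared genes were. The family was chosen on this contrast, so nothing is read from these shares. In the ranking of the 13075 compared genes from the largest fall, MT2A was number 44, MT1E 52, MT1X 63, MT1H 76, MT1G 250 and MT1F 2392.

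The largest falls were also counted among the more abundant genes. Of 6132 genes at 10 FPKM or more in WT cells, 15 fell by 8-fold or more in MEIS2-/- cells on the log2 scale with 0.1 FPKM added, and MT2A, MT1E and MT1X were 3 of them. The others included CHCHD2, a mitochondrial protein gene (101.3 FPKM in WT, 0.18 FPKM in MEIS2-/- cells), and TXNIP, an inhibitor of thioredoxin (103.41 FPKM and 4.26 FPKM). MT1H, at 10.73 FPKM, lay just outside that size with a log2 fold change of −2.94.

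**Figure D2:**
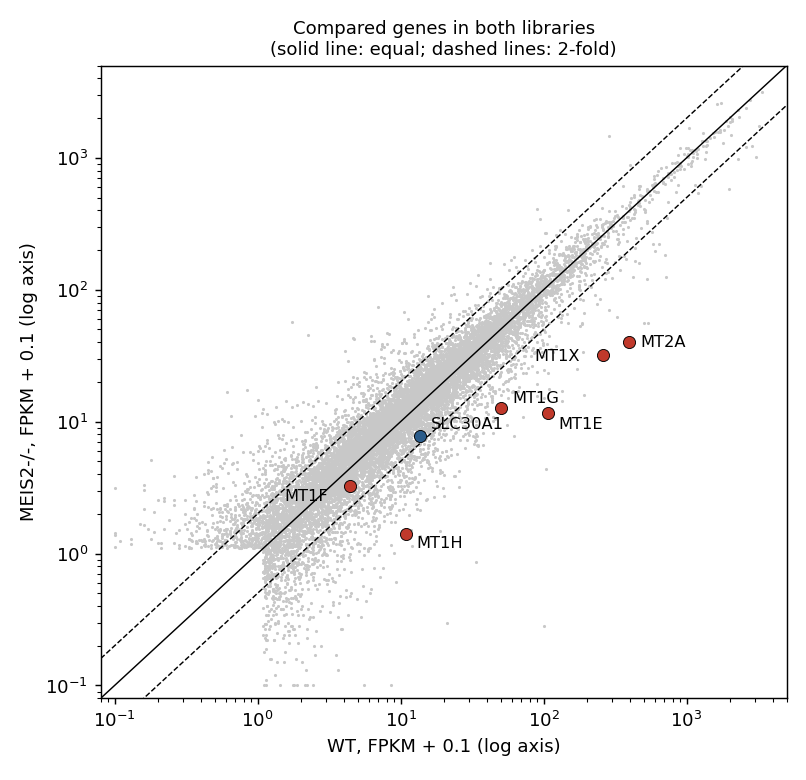
FPKM + 0.1 of the 13075 compared genes in the WT library (horizontal, log axis) and the MEIS2-/- library (vertical, log axis), with the 6 compared metallothioneins in red, SLC30A1 in blue, a solid line at equality and dashed lines at 2-fold. MT2A, MT1X, MT1E, MT1G and MT1H lie below the lower dashed line, and MT1F and SLC30A1 lie between the dashed lines.

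The summed FPKM of the family was 832.56 in WT and 100.84 in MEIS2-/- cells, 8.26-fold lower (log2 ratio −3.04). In terms of all FPKM in a library, the family took 0.186% in WT and 0.0229% in MEIS2-/- cells. MT2A made up 47.9% of the family's sum in WT and 39.8% in MEIS2-/- cells, and MT1X made up 31.4% in both. MT1E gave 12.9% and 11.5%, so the share of these 3 genes changed little next to the change of the sum. MT1G, whose level differed less, took 6.05% in WT and 12.5% in MEIS2-/- cells, and MT1F took 0.518% and 3.11%.

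The order of the members by level was MT2A, MT1X, MT1E, MT1G, MT1H, MT1F, MT1M and MT3 in WT cells, followed by MT1A at 0. In MEIS2-/- cells MT1G stood above MT1E and MT1F above MT1H, with MT2A and MT1X still in front. MT2A exceeded MT1X by 1.53-fold in WT and 1.27-fold in MEIS2-/- cells. The gap between MT2A and MT1F narrowed from 92.5-fold to 12.8-fold. In MEIS2-/- cells MT1G was only 1.09-fold above MT1E, and without replicates it cannot be said which neighbours in either order differ.

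The other genes of this stretch of chromosome 16 did not show the same difference. The 5 nearest protein-coding genes on each side of the cluster were taken from the annotation, and 6 of them passed the filter. Of these, 3 were lower and 3 higher in MEIS2-/- cells, none by 2-fold, with log2 fold changes from −0.29 to 0.31. Their median of 0.10 changed to −0.02 and −0.01 under the rescalings described in the closing section and stood beside 0.12 for all compared genes. On the side of MT3, BBS2, a ciliary transport gene, stood at 8.78 FPKM in WT and 8.4 FPKM in MEIS2-/- cells (log2 fold change −0.06). On the side of MT1X, NUP93, a nuclear pore gene, stood at 34.97 FPKM and 43.4 FPKM (log2 fold change 0.31). Among the members analysed, MT1F lies between MT1A and MT1G by position, and MT1G next to it had the second smallest difference among the compared members.

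SLC30A1 encodes ZnT1, which moves zinc out of the cell and, like the metallothioneins, is a known target of MTF1. It stood at 13.52 FPKM in WT and 7.67 FPKM in MEIS2-/- cells, 1.76-fold lower (log2 fold change −0.81). It was lower in the same library as the metallothioneins but did not reach 2-fold, and ranked 1334 from the largest fall. MTF1 itself, the zinc-sensing regulator, was at similar levels, with 1.8 FPKM in WT and 1.77 FPKM in MEIS2-/- cells (log2 fold change −0.02). The activity of MTF1 was not measured.

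Zinc transporters as groups had medians near that of all genes. Of the SLC30 exporters, 8 of 10 passed the filter, 4 lower and 4 higher, with a median log2 fold change of −0.10 that turned to 0.10 without the filter or with a filter of 5 FPKM. Among them SLC30A3, a transporter known from synaptic vesicles, stood at 4.18 FPKM in WT and 0.24 FPKM in MEIS2-/- cells (log2 fold change −3.65), and SLC30A2, known for zinc in milk, at 0.07 FPKM and 1.44 FPKM (3.18). Of the SLC39 importers, 13 of 14 were listed and all of those passed, 8 lower and 5 higher, with a median of −0.21. The only importer past 2-fold was SLC39A5, which stood at 1.1 FPKM in WT and 6.18 FPKM in MEIS2-/- cells (log2 fold change 2.39). The most abundant importers, SLC39A1 (131.91 FPKM and 110.25 FPKM) and SLC39A7 (124.85 FPKM and 95.22 FPKM), differed by log2 fold changes of −0.26 and −0.39.

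Copper and iron genes differed in both directions. Of 10 compared copper genes, 3 were lower and 7 higher, with a median of 0.14. ATP7B, the copper pump of the liver, was the only one past 2-fold, at 3.73 FPKM in WT and 7.88 FPKM in MEIS2-/- cells (log2 fold change 1.06). The antioxidant enzyme SOD1 stood at 110.44 FPKM and 108.08 FPKM (−0.03). All 7 iron genes were compared, 3 lower and 4 higher, with a median of 0.01 that became −0.10 and −0.09 under the rescalings. SLC40A1, the iron exporter ferroportin, was at 13.46 FPKM in WT and 3.92 FPKM in MEIS2-/- cells (log2 fold change −1.75). FTH1, the heavy chain of ferritin, was at 1137.35 FPKM and 1146.3 FPKM (0.01).

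Genes of other responses known to raise metallothioneins were counted in the same way, next to the all-gene median of 0.12. Of 10 NRF2 targets, which respond to oxidants, 2 were lower and 8 higher, none by 2-fold, with a median of 0.29. HMOX1, heme oxygenase, stood at 18.78 FPKM in WT and 32.21 FPKM in MEIS2-/- cells (log2 fold change 0.78). Of 9 compared heat shock genes, 4 were lower and 5 higher, with a median of 0.41, and the chaperone gene HSPH1 was past 2-fold at 7.0 FPKM and 14.43 FPKM (1.03). The near-identical HSPA1A and HSPA1B are in that list and can share reads.

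Glucocorticoid targets were mixed. Of 6 compared, 4 were lower and 2 higher, with a median of −0.65. TSC22D3, which encodes the glucocorticoid-induced leucine zipper protein, stood at 20.37 FPKM in WT and 7.86 FPKM in MEIS2-/- cells (log2 fold change −1.36). The kinase gene SGK1 differed the other way, at 13.03 FPKM and 31.73 FPKM (1.28), as did the transcription factor gene ZBTB16, at 0.65 FPKM and 1.43 FPKM (1.03).

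Hypoxia targets were the context list with the lowest median, −1.40. Of 7 compared, 6 were lower and 1 was higher, and 5 of the 6 were at least 2-fold lower. ANKRD37 stood at 33.68 FPKM in WT and 0.76 FPKM in MEIS2-/- cells (log2 fold change −5.30). BNIP3, a mitophagy receptor, stood at 171.01 FPKM and 25.2 FPKM (−2.76), and NDRG1 at 89.24 FPKM and 15.68 FPKM (−2.50). VEGFA, the endothelial growth factor, had a log2 fold change of −1.40 and EGLN3, an oxygen-sensing hydroxylase, of −1.24. ADM, the peptide hormone adrenomedullin, was the higher one, at 74.72 FPKM and 105.63 FPKM (0.50). This list was picked with the falls of hypoxia genes in these libraries already known, so its median is no independent evidence, and whether oxygen had a part in the metallothionein levels was not tested.

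By level and fold change, the genes most like the summed metallothioneins were sought among 134 genes whose higher FPKM was within 2-fold of 832.56. Likeness was the absolute difference between log2 fold changes over the 2 libraries. The nearest was DDIT4, an inhibitor of mTORC1, at 499.98 FPKM in WT and 55.5 FPKM in MEIS2-/- cells, with a difference of 0.12. SLC16A3, a lactate exporter, followed with 539.04 FPKM and 55.52 FPKM (0.23), then LDHA, lactate dehydrogenase A, with 722.36 FPKM and 125.56 FPKM (0.52). PGK1, phosphoglycerate kinase, had 526.98 FPKM and 121.62 FPKM (0.93), and IGFBP4, a binding protein of insulin-like growth factors, had 703.06 FPKM and 184.09 FPKM (1.11). With 2 libraries this measure compares 1 fold change with another and nothing more.

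Metallothionein transcripts are short, and FPKM of short transcripts depends on how fragment length is treated. In a check chosen after the values were seen, the 276 other compared genes with an annotated transcript of 397 to 786 bases, the range of the compared metallothioneins, had a median log2 fold change of 0.01, against 0.12 for all compared genes. Of these short genes, 11.6% were at least 2-fold lower and 10.1% at least 2-fold higher, against 7.97% and 7.84% of all compared genes.

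Markers of the cell types that the cultures could hold also differed between the libraries, and their part in the metallothionein levels was not tested. In these bulk samples, fewer cells of a type and less RNA per cell cannot be told apart. Of 6 compared endothelial markers all were lower, 3 by at least 2-fold. The summed level of the 7 listed was 386.74 FPKM in WT and 90.67 FPKM in MEIS2-/- cells, most of it from the VEGF receptor gene KDR (323.77 FPKM and 61.98 FPKM). Their median of −1.26 was less negative than the −2.99 of the metallothioneins. Of the 7 blood markers, 3 were compared and all were lower, TAL1 and GATA2 at least 2-fold, with a median of −1.17 and a sum of 121.22 FPKM and 50.74 FPKM. GATA1, RUNX1, SPI1 and the leukocyte gene PTPRC were under 1 FPKM in both libraries, as was the endothelial marker EMCN. The third compared blood marker, SPN, was low, at 1.84 FPKM in WT and 1.16 FPKM in MEIS2-/- cells.

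Other lineages were higher or mixed. Of 6 compared markers of visceral endoderm and liver, tissues where metallothioneins are known to be abundant, all were higher by 2-fold or more in MEIS2-/- cells. Their median was 3.31, and 1.96 with a pseudocount of 1 FPKM. AFP, APOB and TTR passed the filter only through the MEIS2-/- library. They stood at 0.32, 0.27 and 0.38 FPKM in WT and at 3.91, 3.72 and 5.31 FPKM in MEIS2-/- cells. The summed level of the 7 listed markers of visceral endoderm and liver was 410.94 FPKM in WT and 966.92 FPKM in MEIS2-/- cells. Most of it was APOA1 (401.38 FPKM and 879.13 FPKM), while ALB stayed at 0.03 FPKM and 0.11 FPKM. All 5 compared markers of undifferentiated cells were higher, 3 at least 2-fold, with a median of 1.25 and a sum of 536.93 FPKM and 1831.76 FPKM over 6 listed genes, although SOX2 was at 0.09 FPKM and 0.15 FPKM. Of 6 mesoderm markers 4 were lower and 2 higher, with a median of −0.44 and a sum of 613.44 FPKM and 432.33 FPKM. Of the neural markers 3 were listed and only TUBB3 was compared (log2 fold change 1.09), and their sum was 121.93 FPKM and 259.42 FPKM. PAX6 and DCX were under 1 FPKM in both libraries. No marker of these lists was listed at 0 in either library.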

How the data were processed

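RNA-Seq of total RNA was performed by BGI, with Trizol extraction, an Illumina TruSeq library and a GAIIx instrument per the labels. Values were deposited as FPKM with 2 decimals, in 1 table for each library. The submitters' processing notes name BWA, Bowtie and RSEM and the build hg19, and their versions and roles are not given in the sources used here. The tables list 17397 genes by NCBI Gene number, of which 17365 were matched to a symbol. The metallothioneins and all lists were chosen with earlier results of these data known. The text names every metallothionein, SLC30A1, MTF1, MEIS2, genes of the metal and response lists past 2-fold, examples from the cell type marker lists, the genes nearest in likeness, and a few genes chosen after their values were seen (CHCHD2, TXNIP and the abundant or familiar members of the lists).

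Log2 ratios used a pseudocount of 0.1 FPKM, a filter of 1 FPKM in at least 1 library and a threshold of 2-fold. No test was possible with 1 library per genotype. The FPKM values carry no read counts, so depth is unknown. Alternatives were pseudocounts of 1 and 0.01 FPKM, no filter, a 5 FPKM filter, 1.5-fold and 4-fold in place of 2-fold, rescaling of the MEIS2-/- values to a median log2 ratio of 0 over genes that reached 5 FPKM in each library, or by a trimmed mean of log ratios (trimming 30% by log ratio and 5% by mean value on either side), and leaving out MT2A or the members that share over 10% of their 50-base windows. Transcripts and positions came from GENCODE 29, promoters from RefSeq. In all 206694 transcripts were searched. Computations were tested on simulated data and run with edlib 1.3.9, pandas 2.3.3 and numpy 2.4.6 under Python 3.11.15, and plots were drawn with matplotlib 3.10.9.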

Additional observations from a re-analysis of the deposited data

How the results depend on the processing

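The 6 compared metallothioneins were lower in MEIS2-/- cells under both other pseudocounts and both rescalings, with log2 fold changes between −3.42 and −3.28 for MT2A, −3.15 and −3.0 for MT1X, −3.31 and −3.10 for MT1E, −2.10 and −1.92 for MT1G, −3.05 and −2.34 for MT1H, and −0.56 and −0.36 for MT1F. Their median of −2.99 was −3.19 without MT1G, MT1H and MT1X, the members sharing most sequence, and −1.99 over all 9 members when the filter was dropped. Of 157 values under 10 alternative settings, 146 stayed on their side of the threshold or, for counts, within 1.5-fold, and 6 of these, medians of the exporter, iron and neighbour lists near 0, changed sign as given beside those lists. Without the filter on low values, 1 metallothionein was at least 2-fold higher, MT1A, which is listed at 0 in WT, and the endothelial median was −0.93, with EMCN as the 1 gene added. The number of metallothioneins at least 2-fold lower was 6 without the filter, with MT3 added, which is listed at 0 in MEIS2-/- cells. At a threshold of 4-fold it was 4, against 5 in the main setting. The number of all genes at least 2-fold lower was 693 with a pseudocount of 1 FPKM and 598 with a filter of 5 FPKM, and 1890 and 241 genes passed thresholds of 1.5-fold and 4-fold, against 1042. The number at least 2-fold higher was 623 with a pseudocount of 1 FPKM, 1567 without the filter, 554 with a filter of 5 FPKM, and 2353 and 194 at 1.5-fold and 4-fold, against 1025. Rescaling multiplied the MEIS2-/- values by 0.923 for a median of 0 and by 0.930 for the trimmed mean, −0.12 and −0.10 on the log2 scale before the pseudocount was added, which gave 1197 lower and 815 higher genes, and 1179 and 837. No paired analysis was possible because each genotype has 1 library. With unknown depth, levels under 1 FPKM and zeros cannot be told from missing detection.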
